A study of Mus musculus with 12 samples.

Results

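The RNA of 10 genes of one signalling module was followed through division and plasma cell differentiation of mouse B cells: the 4 p38 MAP kinase genes Mapk11, Mapk12, Mapk13 and Mapk14, and 6 dual-specificity phosphatase genes, Dusp2, Dusp3, Dusp4, Dusp5, Dusp6 and Dusp9. They were picked by name out of 21761 genes with their levels in all 6 groups known, so their own levels and differences are a description and carry no p-value. The 6 groups were splenic B cells (B220+ CD43-) of naive C57/BL6J donor mice, dyed with CFSE or CTV, given to uMT hosts, rested overnight and then challenged with LPS. Every sample carried the labels female, 8 weeks, spleen and strain B6.SJL-Ptprca Pepcb/BoyJ, and the labels do not say whether that strain is the donor's or the host's. All groups shared the transfer, the host genotype and the LPS, so no unstimulated B cell was among them. On day 3 the transferred cells were sorted by dye dilution into Div0, Div1, Div3 and Div5, named for the number of divisions, and into Div8neg and Div8pos, which had divided at least 8 times and lacked or carried CD138, a surface marker of plasma cells. Each group had 2 libraries, 1 from host 196 and 1 from host 197, each from 40000 cells. The uMT host lacks mature B cells of its own but keeps T cells and myeloid cells.

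p38 kinases are MAP kinases that answer to stress, cytokines and microbial products. MAP2 kinases switch them on by phosphorylating a threonine and a tyrosine in the activation loop, and dual-specificity phosphatases switch MAP kinases off by removing phosphate from both residues. Many of these phosphatases are themselves induced by the kinases they restrain, and they differ in which MAP kinase they prefer (ERK, JNK or p38) and in whether they sit in the nucleus or the cytoplasm. In B cells LPS signals through TLR4 to all 3 MAP kinase families. RNA levels, which are what was measured here, show neither the phosphorylation of a kinase nor its activity.

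The 12 libraries held 11551585 to 14975133 counts over gene exons, and 10964 to 11498 genes had 10 or more. Levels are given on 2 scales. Counts per 1e6 counts (CPM) are relative to all gene counts of a library after TMM scaling, and the authors' deposited mRNAs per cell are spike-in-scaled and corrected for exon length, so that they can be compared between genes. The total of mRNAs per cell was 152012 to 174042 in Div8pos and 27409 to 33577 in Div0, so a gene can be lower on the relative scale and no lower per cell. Sdc1, which encodes CD138, had 309.5 to 331.1 CPM in Div8pos libraries and 3.56 to 5.88 CPM in Div8neg libraries. The B cell markers Cd79a, Cd79b, Ms4a1 and Pax5 summed to 637.1 to 658.2 CPM in Div8pos and to 2380.6 to 3831.8 CPM in the other groups. The 6 T cell markers, of which none passed the filter on low counts, summed to 1.06 to 2.56 CPM in every library. Myeloid markers (8 genes) summed to 9.75 to 10.8 CPM in Div8pos, 122.6 to 157.9 CPM in Div8neg and 39.0 to 61.8 CPM in Div0. Dendritic cell markers (4 genes) summed to 2.32 to 2.73 CPM in Div8pos, 49.9 to 66.0 CPM in Div8neg and 7.74 to 9.06 CPM in Div0. In Div5 the myeloid markers summed to 74.4 to 114.9 CPM and the dendritic cell markers to 55.8 to 71.5 CPM. Of the Div8neg sums, Itgam held 103.7 and 132.6 CPM and Itgax 43.7 and 59.8 CPM (hosts 196 and 197). Both are genes of integrins that some B cells also carry. Lyz2 had 3.42 and 3.82 CPM in Div8neg and 8.33 and 10.2 CPM in Div0. Csf1r had 6.83 and 6.57 CPM in Div8neg and 8.7 and 5.55 CPM in Div0. Zbtb46 had 5.37 and 5.5 CPM in Div8neg and 3.79 and 3.59 CPM in Div0. NK cell markers (4 genes) summed to 1.6 to 15.0 CPM and erythroid markers (4 genes) to 0.616 to 64.0 CPM. Cd3g, Mpo and Klrb1c had 0 counts in both Div8pos libraries, as did Ncr1 and Klrb1c in both Div5 libraries. The part of these other cells in the levels below was not tested.

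The p38 genes lie in 2 neighbouring pairs of the mouse genome, Mapk12 beside Mapk11 on chromosome 15 and Mapk14 beside Mapk13 on chromosome 17, as the RefSeq annotation of GRCm38.p6 has them. Mapk12, Mapk11 and Mapk14 all had their highest CPM in undivided cells, and Mapk14 changed least. Their windows from 250 bases before to 50 after the start are shown. They come from RefSeq (GRCm38.p6) and lie at chr15:89140654-89140953 on the minus strand (Mapk12), at chr15:89149557-89149856 on the minus strand (Mapk11) and at chr17:28691092-28691391 on the plus strand (Mapk14, the first of its 2 starts). Each is written 5′ to 3′ along the gene's own strand. Capitals mark a match, on either strand, to one of 6 motifs, which are TGANTCA for AP-1, TGACGTCA for a cyclic AMP response element (CRE), CACGTG for an E-box, GGGCGG for a GC box, CCAAT for the box of that name and TATAAA for a TATA box.
Mapk12: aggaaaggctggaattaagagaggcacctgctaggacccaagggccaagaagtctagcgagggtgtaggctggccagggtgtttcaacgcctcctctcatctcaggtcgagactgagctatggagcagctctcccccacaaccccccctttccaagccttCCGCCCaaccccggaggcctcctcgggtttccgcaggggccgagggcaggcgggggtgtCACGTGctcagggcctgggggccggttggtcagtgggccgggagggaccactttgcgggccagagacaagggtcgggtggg
Mapk11: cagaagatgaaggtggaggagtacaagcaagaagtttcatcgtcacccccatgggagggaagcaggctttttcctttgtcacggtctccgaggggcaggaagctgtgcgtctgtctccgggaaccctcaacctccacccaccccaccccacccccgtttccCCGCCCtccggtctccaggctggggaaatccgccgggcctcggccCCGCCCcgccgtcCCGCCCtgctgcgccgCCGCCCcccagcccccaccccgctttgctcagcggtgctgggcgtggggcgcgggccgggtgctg
Mapk14: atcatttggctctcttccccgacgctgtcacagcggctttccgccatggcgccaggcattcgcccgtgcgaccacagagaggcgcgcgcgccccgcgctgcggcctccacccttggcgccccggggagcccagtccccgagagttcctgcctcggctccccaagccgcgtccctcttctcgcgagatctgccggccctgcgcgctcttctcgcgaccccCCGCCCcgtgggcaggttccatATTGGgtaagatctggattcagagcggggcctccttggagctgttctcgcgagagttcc
The Mapk12 window held 1 E-box and 1 GC box, the Mapk11 window 4 GC boxes, and this Mapk14 window 1 GC box and 1 CCAAT box. Their GC content was 65.3% (Mapk12), 69.7% (Mapk11) and 68.7% (Mapk14), against a median of 52.7% over all 32851 such windows. None of the windows printed held the AP-1, CRE or TATA letters, which occur in 7.81%, 1.79% and 13.6% of all windows, while the E-box occurs in 7.15%, the GC box in 35.7% and the CCAAT box in 37.4%. A window was found for 8 of the 10 genes, and Dusp4 and Dusp9 are only named.

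Mapk11, which encodes p38β, was highest in undivided cells and lowest in CD138+ cells. Its level in hosts 196 and 197 was 103.6 and 101.5 CPM in Div0, 75.3 and 68.0 CPM in Div1, 48.3 and 48.3 CPM in Div3, 35.9 and 40.0 CPM in Div5, 25.5 and 28.0 CPM in Div8neg, and 3.76 and 4.67 CPM in Div8pos. No 2 groups overlapped, and each later group lay below the one before it in both hosts. Per cell the same gene stood at 3.13 and 3.65 mRNAs in Div0, 3.48 and 4.44 in Div1, 2.25 and 2.78 in Div3, 2.87 and 2.86 in Div5, 2.59 and 3.09 in Div8neg, and 0.616 and 0.68 in Div8pos. On that scale Div0 to Div8neg stayed within 2.25 to 4.44 mRNAs and only Div8pos stood clear below the rest. The CPM ratio of Div8pos to Div8neg was 0.157 ± 0.0136 (SD over 2 hosts), and the ratio of mRNAs per cell was 0.229 ± 0.0127. In bulk RNA, fewer cells with the transcript and less of it in each cell cannot be told apart, here and for every gene below.

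Mapk12, which encodes p38γ, was lower in each group from Div1 to Div5 than in the one before it, and its largest step in CPM was the first division. It held 16.5 and 15.1 CPM in Div0, 3.56 and 4.5 CPM in Div1, 1.54 and 1.59 CPM in Div3, and 0.968 and 0.481 CPM in Div5 (hosts 196 and 197). Div8neg had 5 and 3 counts and Div8pos 1 and 3, near or at the floor of 3 counts in a library, so no ratio is given between them. Each of the first 4 groups lay below the group before it without overlap. The log2 fold change of Div1 against Div0 was -1.96 (SE 0.20) relative to all genes and -1.2 (SE 0.31) per cell, with 0.123 and 0.22 mRNAs per cell in Div1 and 0.373 and 0.407 in Div0. For Div3 against Div1 it was -1.37 (SE 0.27) relative to all genes and -1.47 (SE 0.37) per cell. Mapk12 was thus lower on both scales at the first step, whereas Mapk11 was lower relative to all genes (log2 -0.52, SE 0.07) and 0.22 (SE 0.22) log2 units higher per cell, with overlapping libraries.

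Mapk13, which encodes p38δ, had 9 counts over the 12 libraries and 0 in 8 of them. The libraries with any were Div0 and Div1 of host 197, with 2 counts each, and Div5, with 2 and 3 counts. It was left out of the fit by the filter on low counts. A floor of 3 counts in a library allows up to 0.2 to 0.26 CPM, so levels under that were not detectable at this depth.

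Mapk14, which encodes p38α, the most widely expressed p38, was the steadiest of the 9 genes tested in CPM. It had 157.9 and 155.9 CPM in Div0, 156.4 and 147.0 CPM in Div1, 143.3 and 146.7 CPM in Div3, 140.5 and 143.0 CPM in Div5, 133.5 and 130.2 CPM in Div8neg, and 89.7 and 75.9 CPM in Div8pos. Div0 to Div8neg thus covered a narrow range with slightly lower values in later groups, and only Div8pos stood well below. Its highest group mean was 1.89 times its lowest, against 24.3 times for Mapk11. In mRNAs per cell Mapk14 had 3.08 and 3.62 in Div0, 4.66 and 6.19 in Div1, 4.31 and 5.45 in Div3, 7.24 and 6.59 in Div5, 8.74 and 9.26 in Div8neg, and 9.48 and 7.13 in Div8pos. The CD138+ libraries lay on either side of the CD138- ones on the per-cell scale, so that the groups overlapped there and not in CPM (log2 -0.67, SE 0.07 relative to all genes and -0.08, SE 0.23 per cell).

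**Figure D1:**
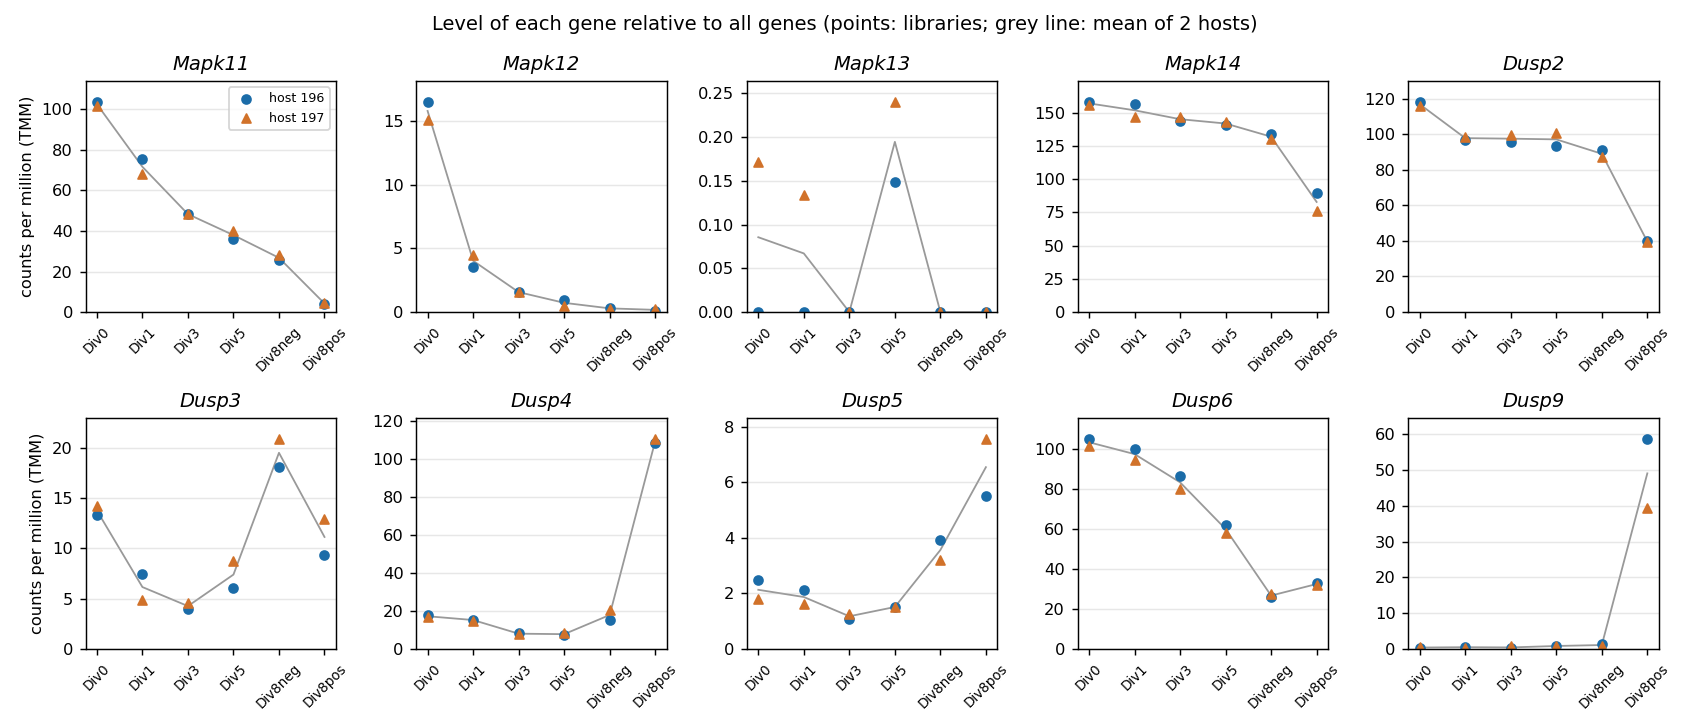
Level of each of the 10 genes in CPM (TMM-scaled; each panel has its own axis from 0) by sorted group, with 1 point per library (circles host 196, triangles host 197) and a grey line through the mean of 2 hosts. Mapk11 was below its Div0 level in every later group, with 3.76 and 4.67 CPM in Div8pos, Mapk14 kept 130.2 CPM or more until Div8neg, and Dusp4 and Dusp9 stood at 108.3 to 110.8 and 39.4 to 58.8 CPM in Div8pos.

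The ratio of Mapk11 to Mapk14 therefore differed along the series more than the sum of the p38 transcripts per cell did. As a share of all mRNA, that sum was lower in each later group than in the group before it. In hosts 196 and 197 the 4 p38 genes together had 6.58 and 7.69 mRNAs per cell in Div0, 8.26 and 10.9 in Div1, 6.62 and 8.3 in Div3, 10.2 and 9.51 in Div5, 11.4 and 12.4 in Div8neg, and 10.1 and 7.84 in Div8pos. Mapk14 made up 46.9% ± 0.141 of them in Div0, 56.7% ± 0.424 in Div1, 65.4% ± 0.424 in Div3, 70.2% ± 1.2 in Div5, 76.0% ± 1.48 in Div8neg and 92.4% ± 1.98 in Div8pos (SD, n = 2 each). Mapk11 took most of the rest, 7.39% ± 1.82 in Div8pos, against 47.5% ± 0.0707 in Div0. Its ratio to Mapk14 within a library was 1.02 and 1.01 in Div0, 0.747 and 0.718 in Div1, 0.523 and 0.51 in Div3, 0.396 and 0.433 in Div5, 0.296 and 0.333 in Div8neg, and 0.065 and 0.0954 in Div8pos. Undivided cells thus had about equal numbers of both transcripts, and no group's ratio overlapped another's. The spike-in scaling cancels in this ratio, which depends only on counts and exon lengths (2442 bases for Mapk11 and 3788 for Mapk14).

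Among the 6 phosphatase genes described here, Dusp2 and Dusp6 led in every group except Div8pos. Dusp2 encodes a nuclear phosphatase first found in activated lymphocytes that acts on ERK and p38. It had 118.1 and 115.6 CPM in Div0, 96.9 and 98.7 CPM in Div1, 95.7 and 99.3 CPM in Div3, 93.5 and 100.7 CPM in Div5, 90.9 and 87.1 CPM in Div8neg, and 39.7 and 39.6 CPM in Div8pos. Div1, Div3 and Div5 overlapped, Div0 lay above them, and Div8pos lay below all. Per cell it had 9.83 and 8.72 mRNAs in Div8pos and 13.9 and 14.5 in Div8neg, a ratio of 0.653 ± 0.0744 (SD over 2 hosts), and 5.39 and 6.28 in Div0. It was therefore the most abundant of the 10 transcripts per cell in Div0 to Div8neg, and in Div8pos its libraries overlapped those of Mapk14, while Dusp4 was first.

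Dusp6 encodes a cytoplasmic phosphatase selective for ERK, and its transcript is a commonly used readout of ERK signalling. It stood at 105.3 and 101.8 CPM in Div0, 100.4 and 94.8 CPM in Div1, 86.8 and 80.1 CPM in Div3, 62.2 and 57.9 CPM in Div5, 25.9 and 27.4 CPM in Div8neg, and 32.8 and 32.1 CPM in Div8pos. The lowest group was Div8neg and not Div8pos, unlike Mapk11, Mapk14 and Dusp2. In CPM the largest of its steps was Div8neg against Div5, with a CPM ratio of 0.445 ± 0.039 and a per-cell ratio of 0.63 ± 0.141 (SD over 2 hosts). From Div0 to Div5 its per-cell level stayed within 2.78 to 5.41 mRNAs, and Div8neg had 2.3 and 2.64, below every other library. Div8pos was above Div8neg in both hosts, with 4.69 and 4.09 mRNAs per cell. The number of Dusp6 transcripts for each Dusp2 transcript was 0.473 ± 0.00566 in Div8pos and 0.173 ± 0.012 in Div8neg, against 0.512 ± 0.00495 in Div0 (SD, n = 2 each).

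Dusp4 and Dusp9 had their highest levels in the CD138+ cells. Dusp4 encodes a nuclear, inducible phosphatase that acts on ERK, JNK and p38. It had 17.8 and 16.5 CPM in Div0, 15.4 and 14.9 CPM in Div1, 8.22 and 7.68 CPM in Div3, 7.22 and 8.17 CPM in Div5, 15.3 and 20.3 CPM in Div8neg, and 108.3 and 110.8 CPM in Div8pos. It was lowest in Div3 and Div5, which overlapped, overlapped Div0 in Div8neg, and was far higher in Div8pos. The CPM ratio of Div8pos to Div8neg was 6.27 ± 1.16 (SD over 2 hosts), and per cell Div8pos had 17.9 and 16.2 mRNAs, against 1.56 and 2.26 in Div8neg.

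Dusp9 encodes a cytoplasmic phosphatase that acts on ERK and p38 and is best known from placenta, where it is needed for development in the mouse. It had 736 and 448 counts in Div8pos (58.8 and 39.4 CPM) and 1 to 19 counts in each of the other 10 libraries. Div8neg, with 19 and 10 counts (1.32 and 0.764 CPM), already lay at or above most earlier libraries, overlapping Div5 at 0.744 and 0.801 CPM. Per cell it had 8.73 and 5.2 mRNAs in Div8pos and 0.122 and 0.0762 in Div8neg. The CPM ratio of Div8pos to Div8neg was 44.4 in host 196 and 51.6 in host 197, the widest of the 9 genes tested. In Div8pos its per-cell level overlapped those of Dusp2 and Mapk14, while in Div0 to Div3 it was at most 0.0345 mRNAs per cell.

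The remaining phosphatases of the 6 were scarcer than Dusp2 and Dusp6 in every group. Dusp3 encodes a small phosphatase without a MAP kinase docking domain that acts on ERK and JNK. It had 13.3 and 14.2 CPM in Div0, 7.45 and 4.83 CPM in Div1, 3.92 and 4.57 CPM in Div3, 6.03 and 8.73 CPM in Div5, 18.1 and 20.9 CPM in Div8neg, and 9.35 and 12.9 CPM in Div8pos. It was thus low at Div3 and highest in Div8neg, the only one of the 9 genes tested with its peak there in CPM. Dusp5 encodes a nuclear phosphatase selective for ERK. It rested on 14 to 86 counts in a library, with 5.52 and 7.57 CPM in Div8pos and 3.91 and 3.21 CPM in Div8neg, and 1.08 to 2.46 CPM in the 8 earlier libraries. Both Div8 groups lay above all earlier groups, and Div8pos lay above Div8neg.

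**Figure D2:**
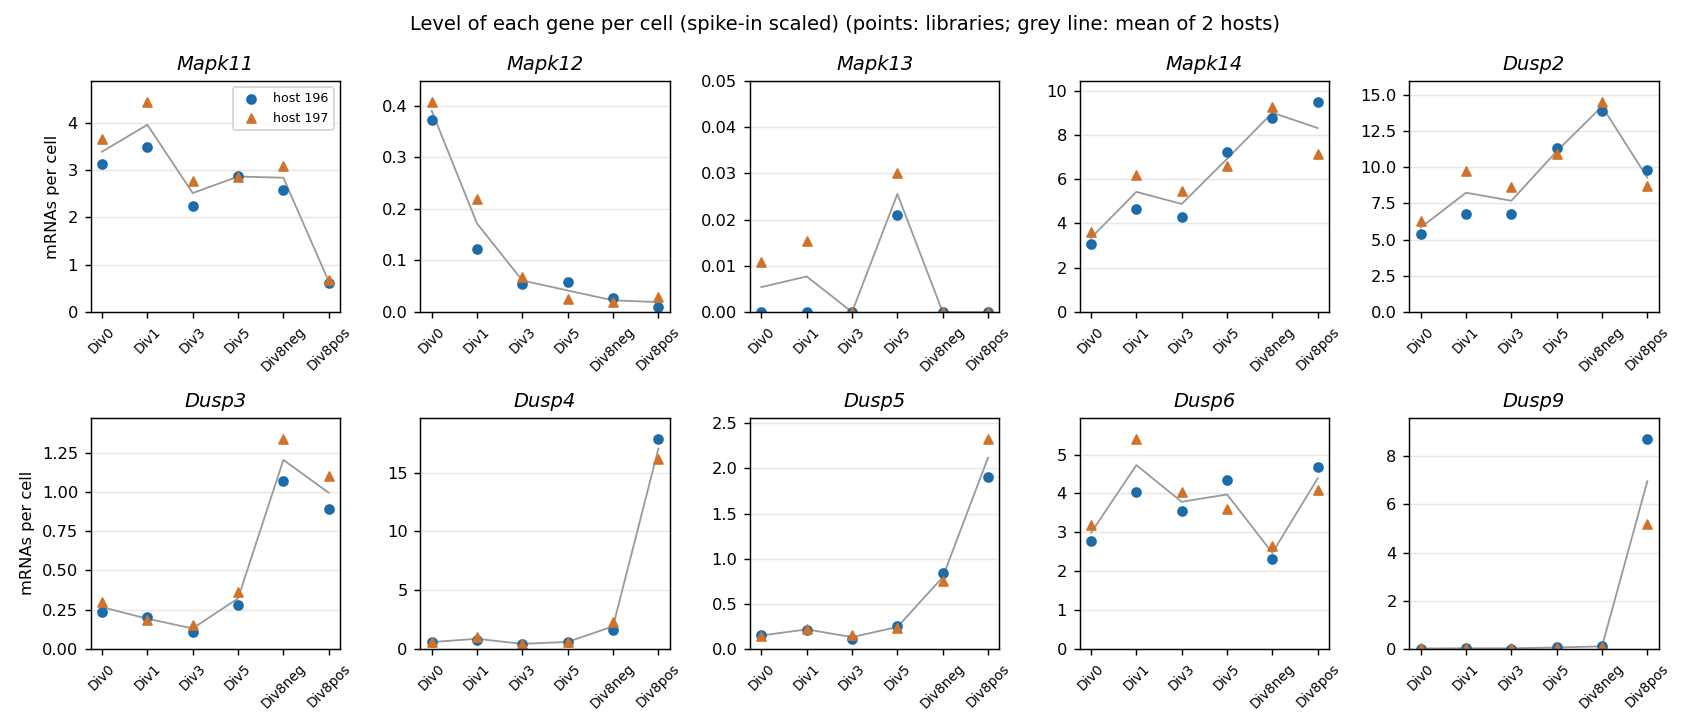
Deposited mRNAs per cell of each of the 10 genes (each panel has its own axis from 0) by sorted group, with 1 point per library (circles host 196, triangles host 197) and a grey line through the mean of 2 hosts. Mapk14 and Dusp2 were higher per cell in Div8neg (8.74 and 9.26, and 13.9 and 14.5) than in Div0 (3.08 and 3.62, and 5.39 and 6.28), whereas Mapk12 was highest in Div0.

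The 6 phosphatase genes together had 43.9 and 37.7 mRNAs per cell in Div8pos and 19.8 and 21.6 in Div8neg, against 9.11 and 10.5 in Div0. For each p38 transcript there were 1.38 ± 0.00707 phosphatase transcripts in Div0, 1.48 ± 0.0495 in Div1, 1.63 ± 0.0141 in Div3, 1.65 in both libraries of Div5, 1.75 ± 0.00707 in Div8neg and 4.58 ± 0.325 in Div8pos (SD, n = 2 each). The ratio was thus higher in each later group without overlap, in small steps across the CD138- groups, and stood apart in Div8pos. Per 1e6 mRNAs the phosphatases had 250.2 ± 3.18 in Div8pos and 206.2 ± 2.47 in Div8neg, against 323.0 ± 13.2 in Div0, so their share of all mRNA was not above that of undivided cells. The p38 genes had 54.9 ± 4.60 per 1e6 mRNAs in Div8pos and 118.2 ± 1.56 in Div8neg, against 234.6 ± 7.92 in Div0. Dusp4 and Dusp9 together made up 58.8% ± 2.62 of the phosphatase transcripts in Div8pos and 9.64% ± 1.63 in Div8neg, and Dusp2 and Dusp6 made up 33.5% ± 0.636 in Div8pos and 80.7% ± 1.70 in Div8neg (SD, n = 2 each).

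**Figure D3:**
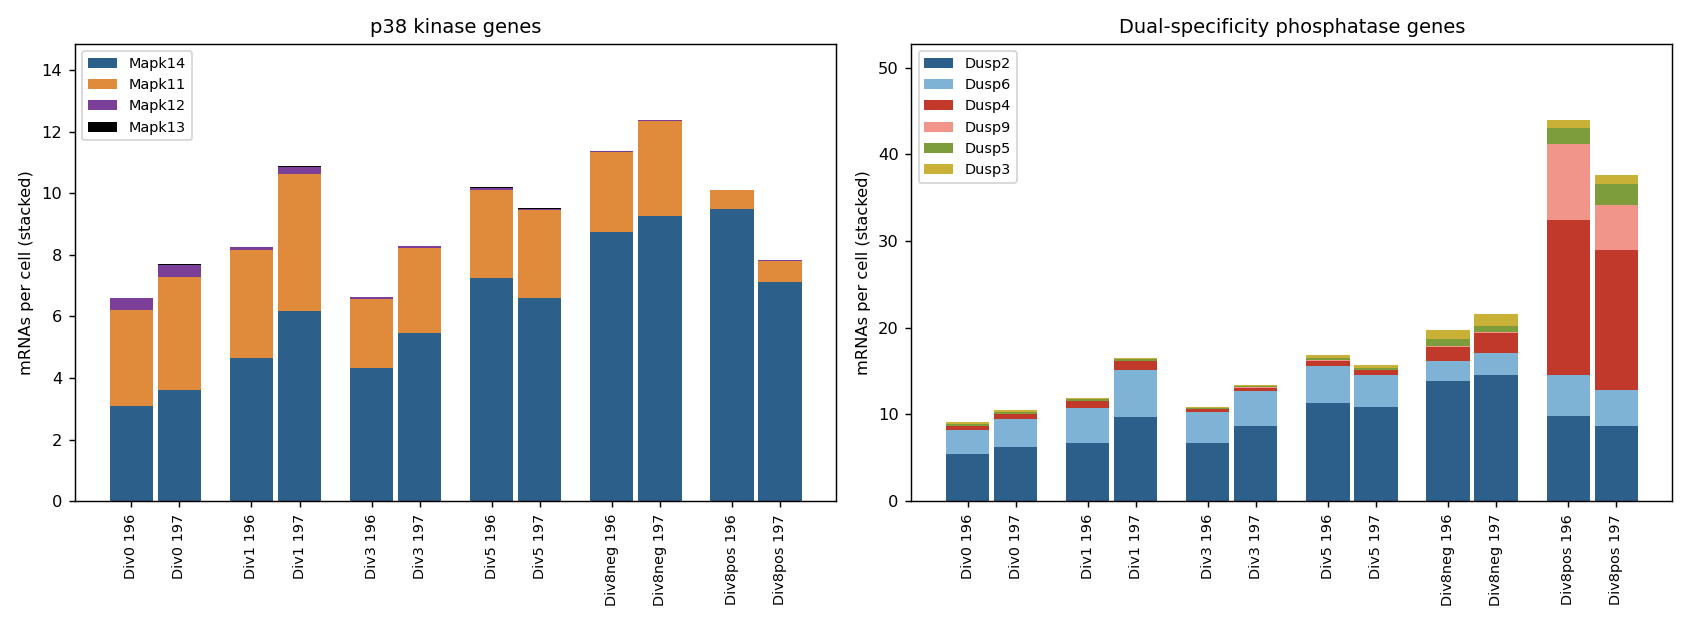
Stacked mRNAs per cell of the 4 p38 genes (left) and the 6 phosphatase genes (right) in each of the 12 libraries, labelled by group and host. The Mapk11 part shrinks beside Mapk14 along the groups (ratio 0.065 and 0.0954 in Div8pos, against 1.02 and 1.01 in Div0), and Dusp4 and Dusp9 fill 58.8% of the Div8pos phosphatase bars on average.

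Taken step by step, the edgeR fit over all 12049 genes that passed the filter on low counts (9 of these 10) put the following past its threshold, an adjusted p under 0.05 over all genes. In Div1 against Div0 it put 0 higher and 4 lower (Mapk11, Mapk12, Dusp2, Dusp3), where 9.37% of all genes were past it, 5.47% higher and 3.9% lower. In Div3 against Div1 it put 0 higher and 3 lower (Mapk11, Mapk12, Dusp4), where 3.42% of all genes were past it, 1.91% higher and 1.51% lower. With the host as a block in the fit, Dusp6 made 4 lower in that step, and those shares of all genes are not of the blocked fit. In Div5 against Div3 it put 1 higher (Dusp3) and 3 lower (Mapk11, Mapk12, Dusp6), where 26.5% of all genes were past it, 14.2% higher and 12.4% lower. That count of 4 was 2 without Div3 of host 196 and 2 without Div5 of host 197, and Mapk12, at 6 to 24 counts in these libraries, was also not past it with DESeq2, with only the groups compared, or without either library of Div0, Div3 or Div8neg. In Div8neg against Div5 it put 3 higher (Dusp3, Dusp4, Dusp5) and 2 lower (Mapk11, Dusp6), where 53.4% of all genes were past it, 26.8% higher and 26.6% lower. In Div8pos against Div8neg it put 4 higher (Dusp4, Dusp5, Dusp6, Dusp9) and 4 lower (Mapk11, Mapk14, Dusp2, Dusp3), where 72% of all genes were past it, 36.7% higher and 35.3% lower. Single libraries also decided other entries. Dusp2 was not past the threshold in Div1 against Div0 without Div0 or Div1 of host 196, nor Mapk12 in Div3 against Div1 without Div1 or Div3 of host 197. The same held for Mapk11 at the Div5 step without Div5 of host 196, and for Dusp5 at the Div8pos step without Div8pos of host 197. Dusp3, the only higher entry at the Div5 step, was not past the threshold without Div3 of host 196 or Div5 of host 197. Where 0 were higher, 0 were higher also at an unadjusted p under 0.05 and with DESeq2. These genes were picked with these differences known, so nothing is read from their counts against those shares.

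When spike-in totals set the library sizes, the median log2 fold change over all genes was 0.74 for the first step (Div1 over Div0), -0.08 for Div3 over Div1, 0.53 for Div5 over Div3, 0.49 for Div8neg over Div5 and 0.60 for the last step (Div8pos over Div8neg). In Div1 against Div0 that fit put Mapk14, Dusp2, Dusp4 and Dusp6 higher and Mapk12 lower, where 81.6% of all genes were past the threshold, 81.5% higher and 0.133% lower. Dusp2 thus changed its direction at that step, from log2 -0.26 (SE 0.06) relative to all genes to 0.49 (SE 0.22) per cell, less than the median gene. In Div3 against Div1 it put 0 higher and 2 lower (Mapk12, Dusp4), where 0.739% of all genes were past it, 0.349% higher and 0.39% lower. For Div5 over Div3 it put 3 higher (Dusp2, Dusp3, Dusp9) and 0 lower, where 45.6% of all genes were past it, 45.2% higher and 0.398% lower. Dusp9 rested there on 10 and 10 counts in Div5 and 1 and 10 in Div3 (hosts 196 and 197). Relative to all genes Dusp9 was not past the threshold at that step (log2 0.97, SE 0.79). In Div8neg against Div5 the spike-in fit put 3 higher (Dusp3, Dusp4, Dusp5) and 1 lower (Dusp6), where 45.3% of all genes were past it, 42.3% higher and 3.06% lower. For Div8pos over Div8neg it put 4 higher (Dusp4, Dusp5, Dusp6, Dusp9) and 2 lower (Mapk11, Dusp2), where 66.4% of all genes were past it, 51.8% higher and 14.6% lower. Past the threshold and lower on both scales were thus Mapk11 and Dusp2 in Div8pos, Dusp6 in the Div8neg step, Mapk12 in the first and second steps and Dusp4 in the second, while Mapk14 and Dusp3 were past the threshold in Div8pos only relative to all genes.

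**Figure D4:**
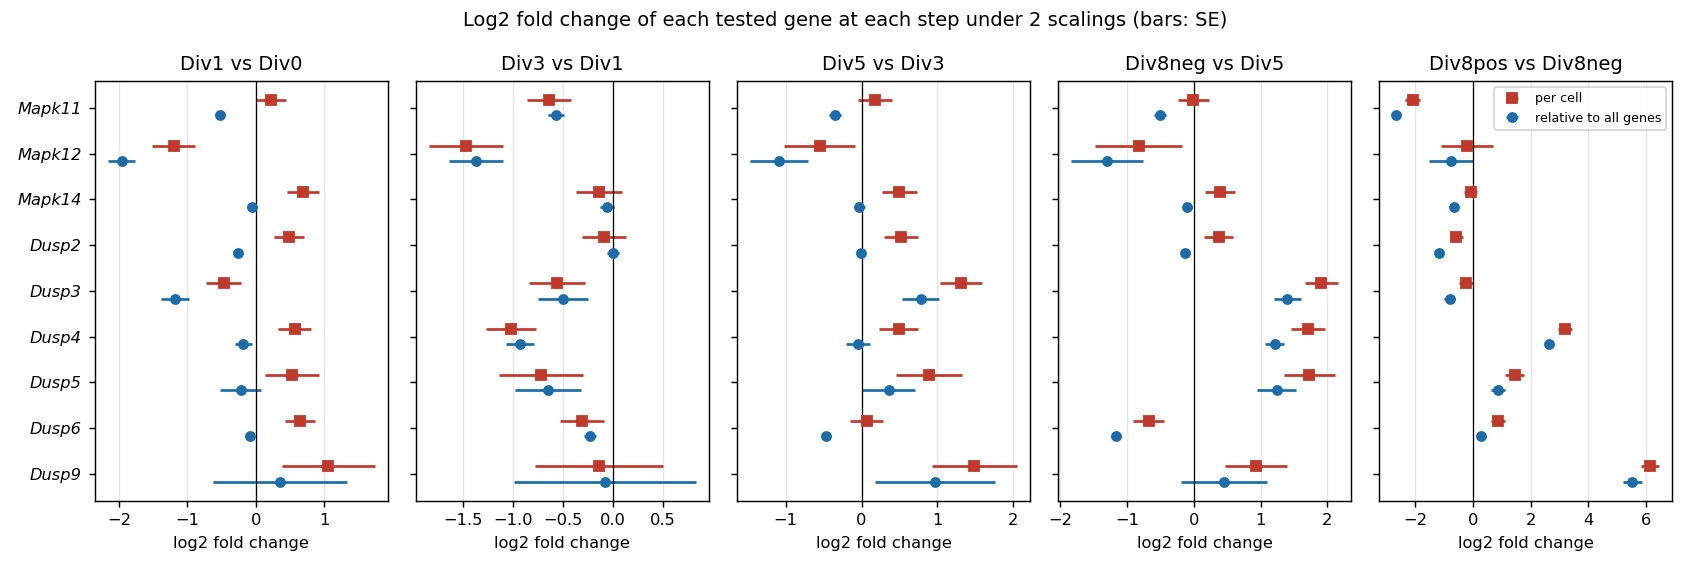
Log2 fold change (x axis) of the 9 genes tested at each of the 5 steps, the group named first over the group named second, relative to all genes (blue circles) and per cell (red squares), with bars of 1 standard error. Dusp9 and Dusp4 stand at 5.53 and 2.63 in Div8pos against Div8neg relative to all genes, and Mapk11 at -2.67.

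The genes whose log2 CPM over the 12 libraries ran closest to each of these genes are given as a description. The 12 points share 6 groups and 2 hosts, so a high correlation says only that the group patterns are alike. Closest to Mapk11 were Tdrd7 (Pearson r = 0.9983), Sh2d2a (0.9962), which encodes a lymphocyte adaptor protein, and Csnk1g2 (0.9961), a casein kinase gene. Tdrd7 had 1.18 CPM in Div8pos, against 27.6 CPM in Div0. Closest to Dusp6 were Foxo1 (0.9971), a transcription factor gene of resting and early B cells, H2-M3 (0.9961) and Atp8a1 (0.9956). Foxo1 had 321.6 CPM in Div0, 189.8 CPM in Div5, 99.6 CPM in Div8neg and 118.5 CPM in Div8pos, so that it shared the low point of Dusp6 in Div8neg. Mapk14 ran closest to Rbm43 (0.994), Zcchc24 (0.9934) and Ppap2b (0.993), and Dusp2 to Dapp1 (0.9947), an adaptor gene of B cell receptor signalling, Sfxn3 (0.9945) and Add3 (0.9944). Dusp4 ran closest to Chpf (0.9919), Pla2g12a (0.9907) and Kdelc1 (0.9874), Dusp9 to Thap7 (0.9809), Nmral1 (0.9797) and Xpo5 (0.9764), and Dusp3 to St3gal1 (0.9436), Spryd7 (0.9169) and Rab5c (0.9103). The r does not measure the size of a change. Thap7 had 32.3 CPM in Div8pos and 20.8 CPM in Div0, Nmral1 96.4 and 25.3, and Xpo5 121.5 and 86.4. All of these differed far less between those groups than Dusp9 did. Among the members themselves Mapk14 and Dusp2 were closest (0.98).

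Chromosomal neighbours did not all share these patterns. Mapk12 and Mapk11 lie between Hdac10, with 35.5 ± 2.96 CPM in Div8pos and 128.6 ± 1.03 CPM in Div0, and Plxnb2, with 73.0 ± 5.51 CPM in Div8pos, 381.0 ± 7.84 CPM in Div8neg and 58.0 ± 6.85 CPM in Div0 (SD, n = 2 each). Plxnb2 thus peaked in Div8neg, where both p38 genes beside it were low. Saraf, beside Dusp4 on chromosome 8, had 157.3 ± 10.8 CPM in Div8pos and 21.5 ± 1.39 CPM in Div8neg, and so was high in the same group as Dusp4. Tnks, on the other side of Dusp4, was lower there, with 40.5 ± 3.06 CPM in Div8pos and 53.4 ± 0.878 CPM in Div8neg.

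Around these 10 genes, 101 other MAP kinase pathway genes in 5 lists were tested in the same fit, and 87 passed the filter on low counts. In Div8pos against Div8neg, 34 rose and 31 fell of these 87, with a median log2 fold change of -0.04, against 0.01 over all genes. That is 74.7% of them, near the 72% of all genes past the threshold at this step (36.7% higher and 35.3% lower). The list of other MAP kinase phosphatases is broad and also holds phosphatase genes such as Dusp11 and Ppp2ca. Its counts are therefore not of MAP kinase phosphatases alone. Of its 17 tested genes 8 rose and 3 fell. The 8 include Ptpn5, which passed the filter through Div8pos, with 3.21 ± 0.551 CPM there and 0.181 ± 0.0399 CPM in Div8neg, where 3 counts make 0.212 and 0.234 CPM in hosts 196 and 197, so no fold is given. Dusp14, which encodes a small phosphatase of T cell signalling, had 20.9 ± 0.42 CPM in Div8pos and 2.52 ± 0.111 CPM in Div8neg (edgeR adjusted p = 8.73e-09). Dusp22, an atypical phosphatase gene, had 67.3 ± 1.22 CPM in Div8pos and 12.5 ± 0.759 CPM in Div8neg (edgeR adjusted p = 2.72e-11). Dusp10, which encodes a phosphatase for p38 and JNK, fell, with 3.58 ± 0.704 CPM in Div8pos and 24.5 ± 4.37 CPM in Div8neg (edgeR adjusted p = 3.42e-10). The immediate-early gene Dusp1, whose product acts on p38 and JNK, rose by 1.14 log2 units (SE 0.18, edgeR adjusted p = 2.86e-05).

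Of 20 genes upstream of p38, 6 rose and 8 fell at this step. The p38-activating kinase gene Map2k3 rose to 155.4 ± 3.14 CPM in Div8pos, against 112.6 ± 3.57 CPM in Div8neg (edgeR adjusted p = 9.61e-06). Map2k6, another such kinase gene, was at 6.0 ± 0.35 CPM in Div8pos and 12.1 ± 0.987 CPM in Div8neg (edgeR adjusted p = 2.65e-05). Per cell its log2 fold change was -0.43 (SE 0.26), not past the threshold. Map2k4, a MAP2 kinase gene of the same list, had 65.5 ± 3.41 CPM in Div8pos and 67.4 ± 1.46 CPM in Div8neg and did not pass. Gadd45b and Gadd45g encode related proteins that bind a MAP3 kinase upstream of p38 and moved apart, with 89.2 ± 2.53 CPM in Div8pos against 35.6 ± 4.37 CPM in Div8neg for Gadd45b and 1.92 ± 0.343 CPM against 14.0 ± 0.0318 CPM for Gadd45g (edgeR adjusted p = 5.2e-08 and 2.31e-10). Gadd45a, of the same family, also fell relative to all genes (edgeR adjusted p = 0.000475). It had 4.5 ± 0.485 CPM in Div8pos and 7.84 ± 0.0433 CPM in Div8neg, and its change per cell is not given here. Of 18 p38 effectors 8 rose and 7 fell. The mRNA decay factor genes Zfp36 and Zfp36l1, both encoding substrates of the p38 pathway, also differed in direction, with log2 fold changes of 1.12 (SE 0.06, edgeR adjusted p = 1.17e-10) for Zfp36 and -1.90 (SE 0.08, edgeR adjusted p = 3.27e-12) for Zfp36l1. Of 20 genes of the ERK branch 8 rose and 9 fell, among them Rasgrp1, a Ras activator gene, with 28.3 ± 5.0 CPM in Div8pos and 156.2 ± 3.4 CPM in Div8neg (edgeR adjusted p = 5.22e-13). Of 12 genes of JNK and other MAP kinases 4 rose and 4 fell, and the largest increases were those of Mapk6 (log2 1.91, SE 0.06, edgeR adjusted p = 2.64e-13) and Jun (log2 1.78, SE 0.15, edgeR adjusted p = 2.59e-08). Per cell 47 of the 87 rose and 8 fell, where 51.8% of all genes were higher and 14.6% lower.

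**Figure D5:**
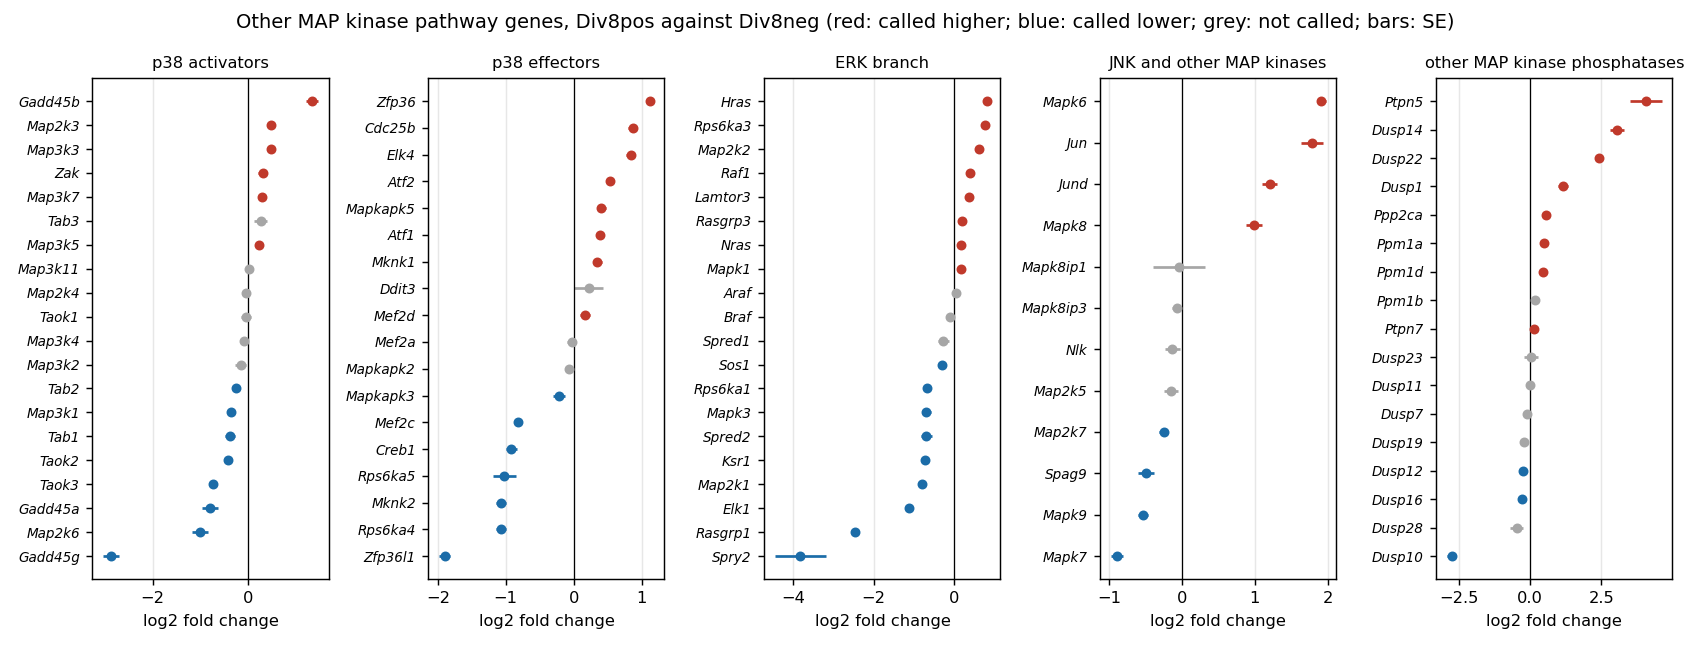
Log2 fold change of Div8pos over Div8neg (x axis) for the 87 tested genes of the 5 lists of other MAP kinase pathway genes, relative to all genes, with bars of 1 standard error. Red points rose and blue points fell at an adjusted p under 0.05, and grey points did not pass. The phosphatase list spreads from Dusp10 at -2.76 to Dusp14 at 3.05, and the point of Ptpn5 beyond it rests on a Div8neg level of about 3 counts or fewer.

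In Div8neg against Div5, 16 of the 87 rose and 24 fell, where 26.8% of all genes were higher and 26.6% lower. Per cell 31 rose and 1 fell, where 42.3% of all genes were higher and 3.06% lower. By list, 6 rose and 5 fell relative to all genes in the ERK branch, 4 and 3 among other phosphatases, 3 and 5 among p38 effectors, 2 and 7 among genes upstream of p38, 1 and 4 among JNK and other MAP kinases. Map2k3 rose to 112.6 ± 3.57 CPM in Div8neg, against 62.8 ± 3.30 CPM in Div5 (edgeR adjusted p = 1.63e-07). Dusp16, which encodes a phosphatase for JNK and p38, fell to 39.1 ± 0.615 CPM, against 96.2 ± 0.606 CPM in Div5 (edgeR adjusted p = 4.38e-10), and per cell its log2 fold change was -0.81 (SE 0.23). Zfp36l1 and the ERK scaffold gene Ksr1 fell by 0.86 and 0.84 log2 units (edgeR adjusted p = 1.63e-07 and 3.26e-07), and per cell they had log2 fold changes of -0.37 and -0.36, neither past the threshold. Dusp16 and Dusp6 were thus lower at this step while Dusp3, Dusp4 and Dusp5 were higher.

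Fewer of these genes, as of all genes, passed at the earlier steps. In Div5 against Div3, 7 rose and 16 fell of 87, a total of 23 that was 12 without Div3 of host 196 and 7 without Div5 of host 197. Of all genes 14.2% were higher and 12.4% lower at that step. By list, 2 rose and 5 fell of the genes upstream of p38, 1 and 4 of the p38 effectors, 1 and 2 of the ERK branch, 1 and 3 of JNK and other MAP kinases, and 2 and 2 of other phosphatases. Per cell 34 rose and 0 fell, where 45.2% of all genes were higher and 0.398% lower, and 0 fell at an unadjusted p under 0.05. Of the 20 genes named by rule at this step, 6 passed in every fit that left out 1 library, and all of them were lower: Zfp36, Zfp36l1, Ksr1, Mapk8ip3, Dusp22 and Dusp16. Per cell none of the 6 was past the threshold, with log2 fold changes of -0.01 for Zfp36, 0.18 for Zfp36l1, 0.16 for Ksr1, 0.13 for Mapk8ip3, -0.08 for Dusp22 and 0.18 for Dusp16. Zfp36 had 180.3 ± 6.15 CPM in Div5 and 262.0 ± 15.6 CPM in Div3 (edgeR adjusted p = 2.74e-05).
In Div1 against Div0, 4 rose and 5 fell of 87, a total of 9 that was 5 without either Div1 library. Of all genes 5.47% were higher and 3.9% lower. Per cell 79 rose and 0 fell, where 81.5% of all genes were higher and 0.133% lower. Of the 20 genes upstream of p38, 0 passed with edgeR and with DESeq2 (3 higher and 2 lower had an unadjusted p under 0.05), while 2 p38 effectors fell, 2 rose and 1 fell in the ERK branch, and 1 rose and 1 fell in each of the other lists. Of 8 named by rule, 3 passed in every fit that left out 1 library. These were Ksr1, with 99.8 ± 2.44 CPM in Div1 and 66.0 ± 5.34 CPM in Div0 (edgeR adjusted p = 7.16e-05), Zfp36, with 342.3 ± 2.67 CPM in Div1 and 451.9 ± 19.1 CPM in Div0 (edgeR adjusted p = 0.000312), and Dusp7, which encodes an ERK phosphatase of the same cytoplasmic group as Dusp6 and Dusp9, with 58.4 ± 2.72 CPM in Div1 and 82.5 ± 8.97 CPM in Div0 (edgeR adjusted p = 0.0014). Per cell Zfp36 and Dusp7 had log2 fold changes of 0.34 and 0.25 at this step, neither past the threshold. In Div3 against Div1, where 3.42% of all genes were past the threshold, only Zfp36 passed of the 87. It had 262.0 ± 15.6 CPM in Div3 and 342.3 ± 2.67 CPM in Div1 (edgeR adjusted p = 0.00139). With the host as a block 2 rose and 4 fell of the 87, and the 3.42% is not of that fit. Per cell 0 rose and 0 fell at that step, where 2 had an unadjusted p under 0.05.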

How the data were processed

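RNA was measured in 12 libraries, 2 in each of 6 groups, taken from the labels' titles. Per the labels' protocols, spike-in RNA was added to the lysate of 40000 sorted cells before extraction, and a stranded mRNA kit was used for the libraries. The submitters' processing notes name Picard, R 3.2.2 and the build mm9. Which programs aligned and counted the reads is not given in the sources used here. As deposited by the authors, counts are, per the readme, reads on exons of the UCSC KnownGenes annotation. The deposited FPKM divide counts by exon length and library total. The authors' mRNAs per cell, a signal scaled to the spike-ins, equal the deposited FPKM times 1 factor per library (0.1387 to 0.769), as checked on the values. Rows without a symbol (90 of 21761 genes, 0.0498 to 0.0943% of counts) were kept, since they carry gene identifiers. The bisulfite libraries were not analysed here.

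Counts were fitted in R 4.3.3 with the quasi-likelihood test of edgeR 4.0.16, with a mean for each group over all 12 libraries and 5 steps tested. TMM factors were 0.9456 to 1.021, and filterByExpr left 12049 genes to test and took out 9712. Calls are at a p under 0.05 after Benjamini-Hochberg adjustment over all genes tested. CPM are TMM-scaled, marker sums included, except the CPM of the floor of 3 counts, which use unscaled library totals. Per-cell fits used library sizes scaled to summed spike-in counts (113723 to 683173). Alternatives were DESeq2 1.42.0, no filter, the spike-in scaling, host as a block, only the groups compared, and each library left out. The smallest p of an exact permutation test of 2 against 2 libraries is 0.333, and ratios are given with their SD. The number of libraries limits the precision, and p-values measure only the spread between libraries of 2 host animals.

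The genes described and the lists were chosen with earlier results of these data known, and 2 list genes are not reported here. Other pathway genes were named by a rule: called, at least 10 CPM in the higher group, the same sign in both hosts, up to 3 per list and direction by size of fold change, and, for genes of at least 5 mean CPM, the 3 genes with the highest correlation of log2 CPM (prior count 1). Ptpn5, Gadd45a, Map2k4 and the chromosomal neighbours fall outside it and were chosen after their values were seen. The pairing comes from the host: the 6 libraries of a number came from the same animal's spleen, and deviations from the group means of same-host libraries correlated at 0.0231 to 0.271 over 15 pairs of groups.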

Additional observations from a re-analysis of the deposited data

How the results depend on the processing

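Of the counts of called genes at the 5 steps, all for these 10 genes and for the other pathway genes were within 1.5 times their value with DESeq2 and with only the groups compared. Among the pathway genes, the count of 9 in Div1 against Div0 was 79 under spike-in scaling and 5 to 10 with a library left out. The count of 1 in Div3 against Div1 was 5 without the filter, 6 with the host as a replicate block, 0 under spike-in scaling with edgeR and 1 to 3 with a library left out. The 23 of Div5 against Div3 were 7 to 24, and the 4 of these 10 genes at that step were 2 to 4, with a library left out. The block moved no other count by more than 1.5 times. The cause of these differences was not tested. Of the log2 fold changes past the threshold, for these 10 genes and the pathway genes named by rule, 29 turned positive under spike-in scaling, and those not past it that changed sign, as for Mapk14, Dusp4, Dusp5 and Dusp6 in Div1 against Div0, are not counted here. In Div1 against Div0 the ones counted were Mapk11 0.22, Dusp2 0.49, Zfp36 0.34, Mef2d 0.50, Mapk3 0.32, Jund 0.37 and Dusp7 0.25. In Div5 against Div3 they were Mapk11 0.18, Dusp6 0.07, Map3k2 0.22, Map3k11 0.28, Map3k1 0.30, Zfp36l1 0.18, Elk4 0.23, Ksr1 0.16, Araf 0.30, Mapk8ip3 0.13, Spag9 0.26, Map2k7 0.35 and Dusp16 0.18. In Div8neg against Div5 they were Elk4 0.10, Elk1 0.12, Spag9 0.02, Map2k7 0.22 and Dusp11 0.24. In Div8pos against Div8neg they were Mapk9 0.06, Spag9 0.09, Dusp16 0.31 and Dusp12 0.34. Of all these, only Dusp2 (SE 0.22) and Mef2d (SE 0.23) in Div1 against Div0 were past the threshold under spike-in scaling. The others were not, so they are not shown to be higher per cell. Counts of 1 to 24 limit Mapk12 beyond Div1 and Dusp9 outside Div8pos, and Mapk13 everywhere.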
